A study of Homo sapiens with 8 samples.

Results

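ATP-binding cassette (ABC) proteins are described here in H460 cells, a human large cell lung carcinoma line, after acquired resistance to TRAIL, a cytokine whose binding to death receptors starts apoptosis. The members are a list of 39 ABC gene symbols out of 19775 genes measured. Where several probe sets carried a gene's symbol, the brightest on average across the 8 arrays was used. Of the 39, 37 had such a probe set, and ABCA10 and ABCC6 were not analysed here. The 2 groups are 4 arrays of TRAIL-resistant cells, labelled H460R, which were exposed to TRAIL every day for 6 months, and 4 arrays of TRAIL-sensitive cells, labelled H460S and given as the control. Both come from the same line, grown in RPMI with serum, and the labels attach the same treatment text to all 8 arrays. The labels do not say whether the resistant cells are 1 clone or a mixed culture, or how long before RNA extraction they last met TRAIL. Resistance, long exposure and time in culture cannot be told apart in this design.

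Most ABC proteins use ATP to move a substrate across a membrane. Members of the ABCB, ABCC and ABCG subfamilies are known as efflux pumps that carry drugs, bile salts and glutathione or glucuronide conjugates out of cells. The ABCA subfamily moves lipids and sterols, the ABCD subfamily carries fatty acids into peroxisomes or cobalamin out of lysosomes, and the ABCE and ABCF proteins have no membrane part and act on ribosomes.

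Values are signals on a linear scale, and changes are H460R minus H460S on the log2(signal + 1) scale with limma's standard error, 4 arrays per group and an adjusted p over all genes. A gene rose or fell where that adjusted p was below 0.05. The array medians lay between 32.6 and 37.5 in signal, and each array correlated on average at 0.938 to 0.952 with arrays of its own group. The 3' minus 5' difference of the GAPDH controls, a measure of RNA quality, differed by 0.02 (exact two-sided permutation p = 0.686), and that of ACTB was 0.12 lower in H460R (exact two-sided permutation p = 0.0286, the smallest that 4 against 4 arrays allow). The part of the ACTB difference in the results was not tested. The epithelial keratins KRT8 and KRT18 were bright in both groups, with changes of -0.04 and -0.06 that did not pass, while KRT19 fell by 1.24 ± 0.10. EPCAM and CDH1, defining epithelial genes, lay below the level of the median probe set in both groups. Of the 12 measured markers of leukocytes, endothelium and fibroblasts, 1 changed, PDGFRB, which fell by 1.12 ± 0.26.

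The ABC family did not move as a block. In H460R cells 4 members rose, all of them soluble translation factors or a peroxisomal carrier: ABCE1, ABCF1, ABCF2 and ABCD3. Another 7 fell: the efflux pumps ABCC3, ABCG2, ABCC1 and ABCB5, the lipid transporters ABCA8 and ABCA9, and the channel regulator ABCC9. The 11 called members are 29.7% of the 37, against 30.3% of all 19775 genes, of which 14.7% rose and 15.6% fell. Among members brighter than the median probe set, which has a log2 level of 5.01, 9 of 25 were called, against 47.2% of all genes that bright. Changes that passed and reached 2-fold were seen in 5 members, against 7.75% of all genes. The median change of the 37 was -0.23, against -0.03 for all genes. The share of members called lay close to that of genes at large, so this count says nothing particular about the family. In bulk RNA, fewer cells of a type and less RNA per cell cannot be told apart.

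**Figure D1:**
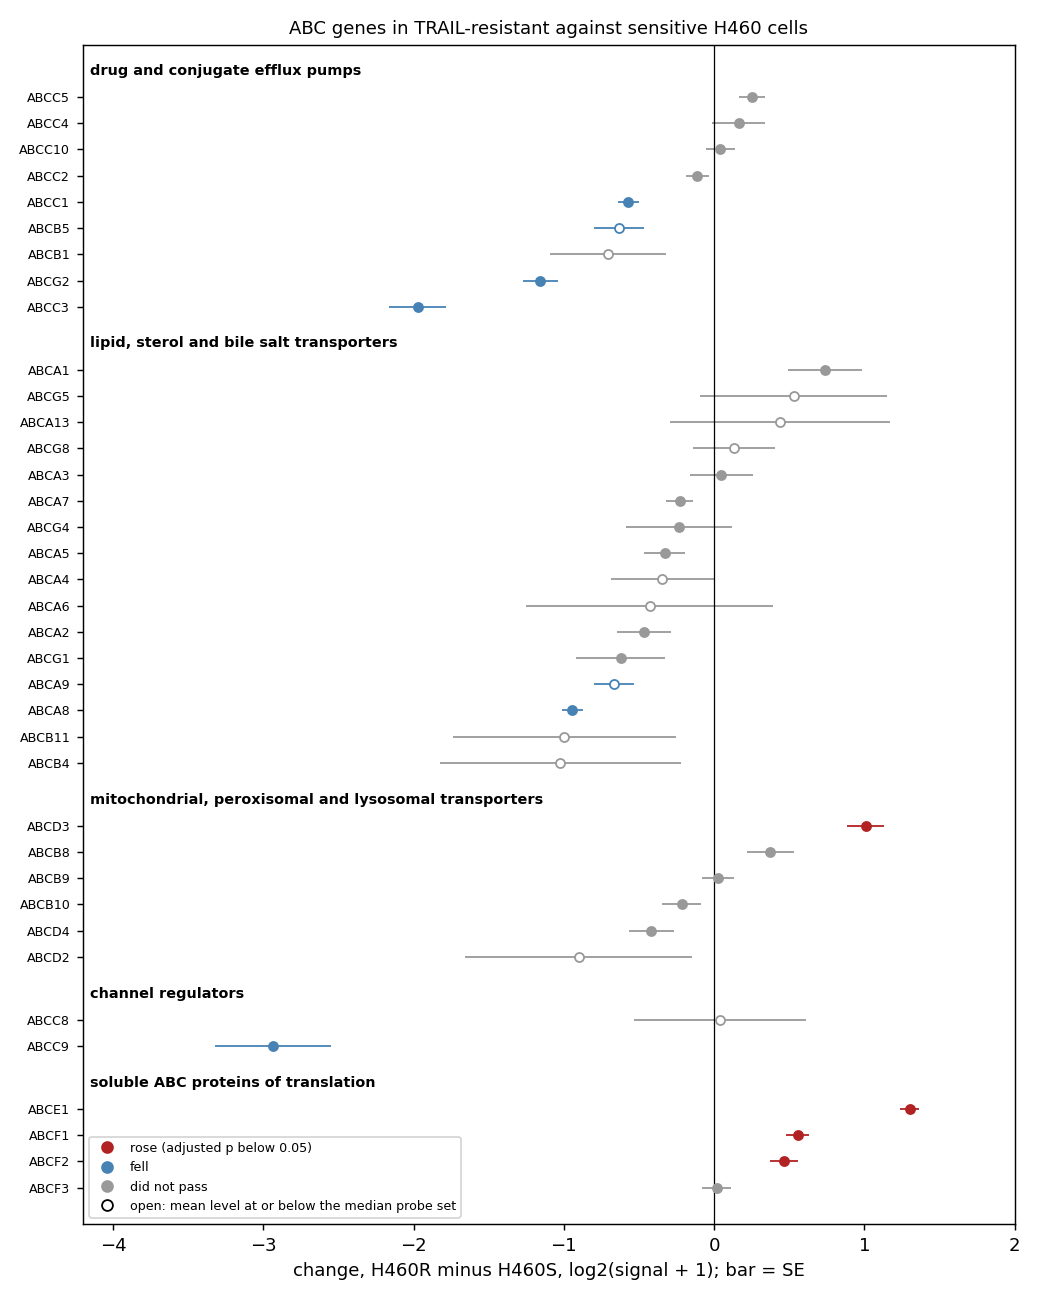
Change of each of the 37 measured ABC genes, H460R minus H460S on the log2(signal + 1) scale (horizontal axis), by role; points are limma estimates and bars standard errors, 4 arrays per group. Filled points lie above the level of the median probe set and open points at or below it. ABCC9 and ABCC3 lie farthest left at -2.94 and -1.97, and ABCE1 farthest right at 1.30.

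Among the 9 drug and conjugate efflux pumps, 4 fell, 0 rose and 5 did not pass, beside 15.6% of all genes that fell. The median change was -0.57 over all 9 and -0.11 over the 7 pumps above the level of the median probe set, of which 3 fell, beside 23.9% of genes that bright. ABCC3 (MRP3), which exports glucuronide conjugates and bile salts, had signals of 168, 262, 172 and 150 in the 4 H460R arrays and of 802, 674, 814 and 621 in the 4 H460S arrays. Every resistant array lay far below every sensitive one. The change was -1.97 ± 0.19 (adjusted p = 0.0003), or 3.93-fold lower in H460R. ABCC3 is also the member with the most probe sets that changed: all 5 fell, by 1.08 to 3.08.

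ABCG2 (BCRP), the breast cancer resistance protein and a marker of the side population of stem-like cells, had signals of 486, 410, 447 and 556 in H460R and of 1156, 972, 995 and 1096 in H460S. The groups did not overlap, and the change was -1.16 ± 0.12 (adjusted p = 0.000345), or 2.23-fold lower in H460R. It rests on 1 probe set. ABCC1 (MRP1), which exports glutathione conjugates and leukotriene C4, had signals of 1078, 1029, 966 and 934 in H460R and of 1464, 1487, 1535 and 1460 in H460S. The fall of 0.57 ± 0.07 (adjusted p = 0.000964) was smaller but well beyond the spread within groups, and the other ABCC1 probe set fell by 0.65 ± 0.14.

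The remaining pumps gave no call that held. ABCB5, a pump known from melanoma, fell by 0.63 ± 0.17 (adjusted p = 0.0262), but its signals were only 10.2 to 16.8 in H460R and 20.01 to 26.5 in H460S. Without H460R array 3, or without H460S array 1, 2 or 3, ABCB5 did not pass, with adjusted p up to 0.0637, and its other 3 probe sets did not pass. ABCB1 (P-glycoprotein, MDR1), the classical multidrug pump, was dim in both groups, with signals of 3.53 to 12.6 in H460R and 8.52 to 16.7 in H460S, and its change of -0.71 ± 0.39 did not pass (adjusted p = 0.228). The other ABCB1 probe set, also dim, changed the other way, by 1.29 ± 0.46, without passing, and the mean of both changed by 0.29 (adjusted p = 0.570). A probe set shared between ABCB1 and ABCB4 was not used.

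ABCC2 (MRP2), which carries conjugates into bile, was bright and close to level: signals were 1181, 1112, 1127 and 1173 in H460R and 1338, 1140, 1208 and 1283 in H460S. The groups overlapped, and its change of -0.11 ± 0.08 did not pass (adjusted p = 0.333). ABCC4 (MRP4), an exporter of cyclic nucleotides and prostaglandins, changed by 0.16 ± 0.18 and ABCC10 (MRP7) by 0.04 ± 0.10, neither of which passed. ABCC5 (MRP5), which also exports cyclic nucleotides, had 199 to 230 in H460R and 168 to 198 in H460S, groups that did not overlap, and its change of 0.25 ± 0.09 did not pass (adjusted p = 0.0627). It passed without H460S array 2 (0.31, adjusted p = 0.0389). A further bright ABCC5 probe set changed the same way, by 0.44 ± 0.21, and another bright probe set the other way, by -0.39 ± 0.13. Neither passed. With probe sets that carry a cross-hybridisation suffix left out, the one that changed the other way stands for the gene, so no direction is given for ABCC5.

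**Figure D2:**
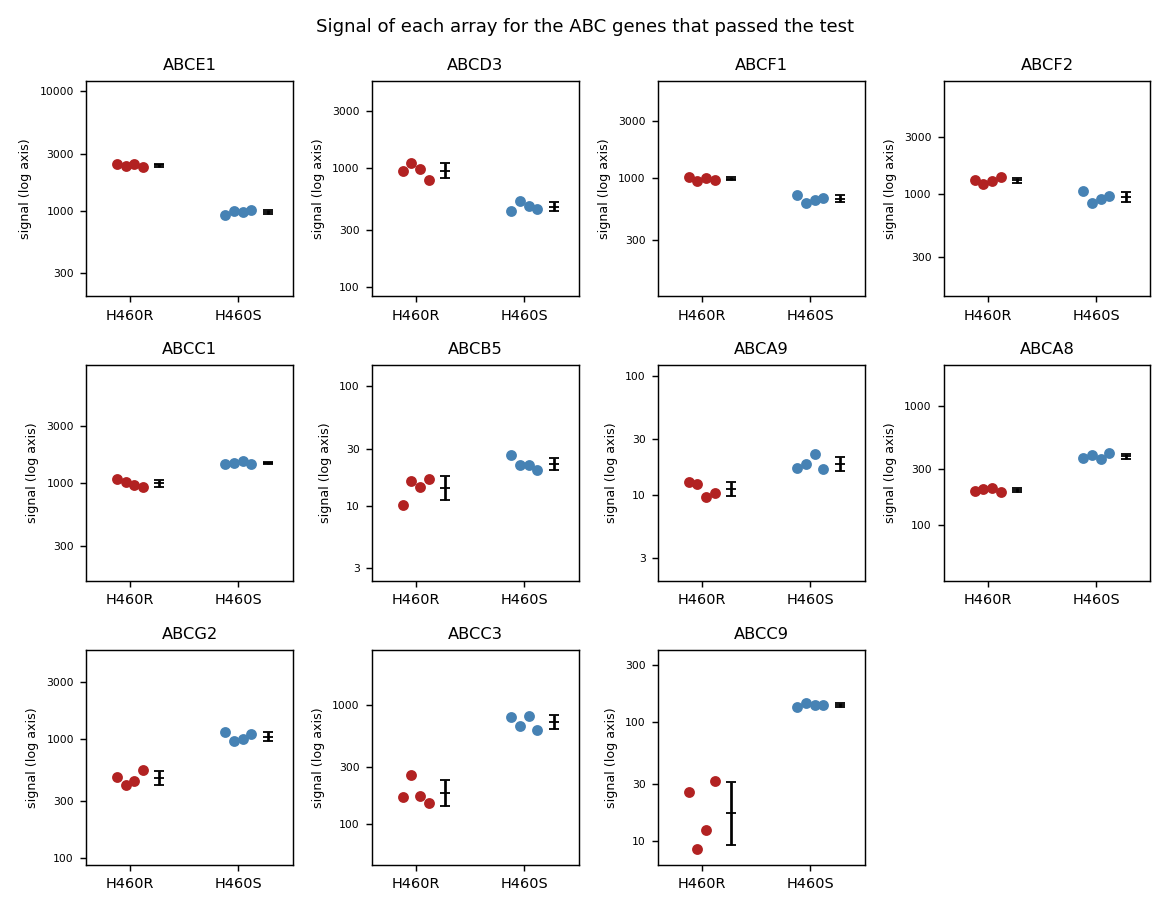
Signal of every array for the 11 ABC genes that passed the test; the vertical axis is logarithmic, and its range covers the same fold in each panel. Points are arrays, and bars beside them give the mean ± SD on the log2 scale (n = 4 per group). In each panel the 4 H460R arrays do not overlap the 4 H460S arrays, with the widest gap in ABCC9.

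The largest change of any member was that of ABCC9 (SUR2), the regulatory subunit of ATP-sensitive potassium channels, which does not transport a substrate itself. Its signals were 25.7, 8.62, 12.3 and 32.1 in H460R and 133, 145, 140 and 140 in H460S. The sensitive arrays were tightly grouped, and the resistant ones lay near or below the level of the median probe set. The change was -2.94 ± 0.39 (adjusted p = 0.00117). A further 2 probe sets of ABCC9 fell, with changes of -4.37 ± 0.35 and -4.61 ± 0.58, and the remaining 2, both dim, changed by -0.40 and 0.37 and did not pass.

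ABCC9 can form the channel together with the pore subunit Kir6.1, the product of the neighbouring gene KCNJ8. KCNJ8 had signals of 0.485, 7.36, 2.31 and 3.58 in H460R and of 107, 75.9, 84.3 and 82.5 in H460S. Its signal was close to the bottom of the scale in all 4 resistant arrays, and the change was -4.56 ± 0.49 (adjusted p = 0.000445). The RNA of both subunits of this channel type fell. The pore gene KCNJ11, whose product Kir6.2 can pair with ABCC8, though not only with it, changed by -1.18 ± 0.56 (adjusted p = 0.167). ABCC8 (SUR1) itself was dim, with signals of 1.20 to 7.29 in H460R and 1.67 to 9.26 in H460S, and changed by 0.04 ± 0.57 (adjusted p = 0.972).

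The neighbourhood of this gene pair did not fall as a whole. Counting the 3 nearest measured protein-coding genes on each side, in the gene order of assembly GRCh38.p14, 3 of 8 genes fell: SPX, by 2.47 ± 0.10, and the pair itself. LDHB, directly beside KCNJ8, changed by -0.17 ± 0.12 and CMAS, directly beside ABCC9, by -0.004 ± 0.10, and neither passed. A similar stretch holds the ABCA5, ABCA6, ABCA8 and ABCA9 genes. There 4 of 10 genes fell: ABCA8, ABCA9, and the flanking genes MAP2K6 and PRKAR1A, by 0.59 ± 0.11 and 0.47 ± 0.08. These flanking genes were chosen by position, after the values of the ABC genes were known. Both counts include the genes around which the stretches were drawn. Outside those, only SPX fell in the first stretch, and only MAP2K6 and PRKAR1A in the second. Among all genes 15.6% fell, or 23.9% of those above the level of the median probe set.

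**Figure D3:**
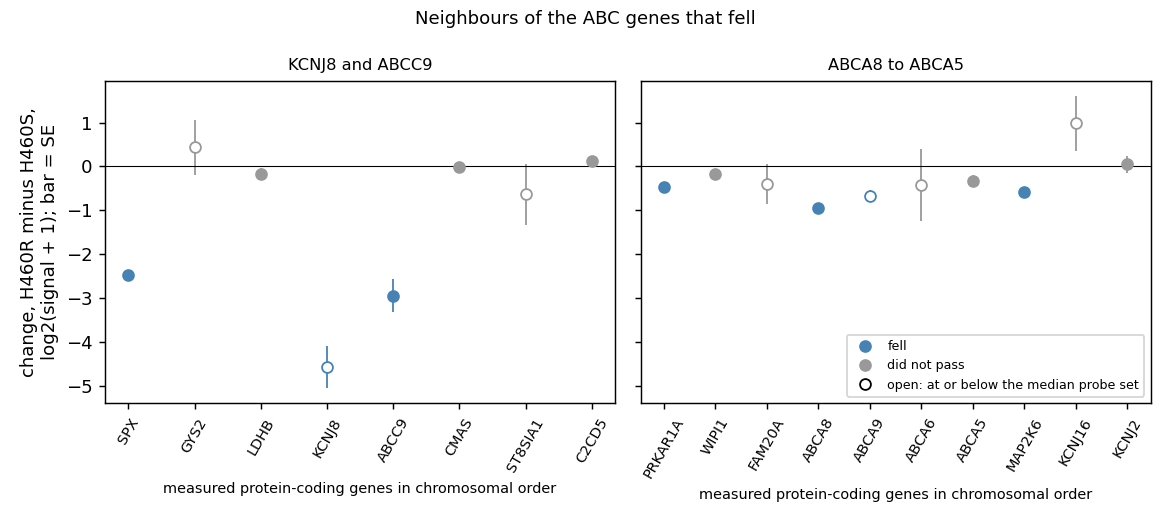
Change, H460R minus H460S on the log2(signal + 1) scale (vertical axis), of measured protein-coding genes in chromosomal order around KCNJ8 and ABCC9 (left) and around the ABCA8 to ABCA5 cluster (right); bars are standard errors, n = 4 per group. KCNJ8 and ABCC9 stand at -4.56 and -2.94 between LDHB and CMAS, which did not pass.

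The 250 bases upstream of the annotated starts of ABCC9 and KCNJ8, which fell together, and of the 3 soluble members that rose are shown next, 5' to 3', as RefSeq gives them for GRCh38.p14. Capitals mark matches, on either strand, to any of 5 motifs: the E-box CACGTG, the core ACGTG of hypoxia response elements, which every CACGTG also contains, the antioxidant response element core TGACNNNGC, the GC box GGGCGG and the cyclic AMP response element TGACGTCA.
ABCC9, chr12:21941427-21941676, minus strand: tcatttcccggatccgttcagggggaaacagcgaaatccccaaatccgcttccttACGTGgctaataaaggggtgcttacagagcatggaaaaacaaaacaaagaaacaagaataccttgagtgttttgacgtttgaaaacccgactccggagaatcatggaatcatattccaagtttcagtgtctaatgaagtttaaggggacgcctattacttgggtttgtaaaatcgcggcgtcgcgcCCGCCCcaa
KCNJ8, chr12:21774707-21774956, minus strand: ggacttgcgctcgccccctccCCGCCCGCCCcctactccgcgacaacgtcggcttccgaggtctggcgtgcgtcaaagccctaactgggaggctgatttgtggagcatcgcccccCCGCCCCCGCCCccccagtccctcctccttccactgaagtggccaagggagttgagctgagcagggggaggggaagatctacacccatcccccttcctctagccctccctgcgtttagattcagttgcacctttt
ABCE1, chr4:145098061-145098310, plus strand: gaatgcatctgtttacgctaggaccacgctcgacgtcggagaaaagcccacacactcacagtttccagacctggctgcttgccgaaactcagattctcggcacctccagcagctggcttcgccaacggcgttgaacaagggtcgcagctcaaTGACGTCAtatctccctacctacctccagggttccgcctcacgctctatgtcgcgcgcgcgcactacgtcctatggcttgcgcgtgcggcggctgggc
ABCF1, chr6:30571192-30571441, plus strand: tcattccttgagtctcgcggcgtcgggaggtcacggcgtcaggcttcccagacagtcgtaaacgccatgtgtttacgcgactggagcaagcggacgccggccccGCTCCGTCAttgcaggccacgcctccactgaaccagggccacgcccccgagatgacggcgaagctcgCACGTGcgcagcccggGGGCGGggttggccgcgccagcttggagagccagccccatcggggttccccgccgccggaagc
ABCF2, chr7:151227206-151227455, minus strand: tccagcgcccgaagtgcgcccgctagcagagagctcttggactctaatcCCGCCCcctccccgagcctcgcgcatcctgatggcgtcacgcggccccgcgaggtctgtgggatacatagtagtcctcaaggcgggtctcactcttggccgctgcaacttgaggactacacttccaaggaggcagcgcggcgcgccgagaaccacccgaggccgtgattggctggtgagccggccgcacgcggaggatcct

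The upstream stretches of the 2 channel genes shared the GC box, once in ABCC9 and at 4 places in KCNJ8, a motif held by 42.6% of 35116 such stretches in the table. ABCC9 also held 1 ACGTG, found in 18.5% of stretches. ABCE1 held TGACGTCA, found in 1.65% of them. That motif was added after the sequence had been read, and ABCE1 was the only 1 of the 29 members with a listed start that held it. ABCF1 held CACGTG and TGACNNNGC once each, found in 6.34% and 10.9% of stretches. It also held 1 GC box, and ABCF2 held a GC box alone. TGACNNNGC was found upstream of 8 of the 29 members, of which 1, ABCF1, had changed. ABCG2 has 5 listed starts, and CACGTG lay upstream of 2 of them. The starts of ABCC1, ABCC3, ABCA8 and ABCB5 were not analysed here.

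The 4 soluble members, all bright, were the role with the most rises: 3 of 4 rose, beside 23.3% of genes above the level of the median probe set. ABCE1, which splits ribosomes into subunits after termination, had signals of 2453, 2352, 2455 and 2314 in H460R and of 921, 984, 968 and 1012 in H460S. The groups were far apart with little spread in either, and the rise of 1.30 ± 0.07 (adjusted p = 2.01e-05), or 2.46-fold, was the largest among members. The other ABCE1 probe set rose by 1.17 ± 0.16.

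ABCF1, which binds initiation factor eIF2 and ribosomes, had 1014, 944, 998 and 963 in H460R and 722, 617, 651 and 679 in H460S. It rose by 0.56 ± 0.07 (adjusted p = 0.00127), with no overlap of the groups. ABCF2, a related cytosolic ATPase, had 1331, 1219, 1304 and 1389 in H460R and 1064, 850, 918 and 974 in H460S. Its rise of 0.47 ± 0.09 (adjusted p = 0.00727) was the smallest of its 4 probe sets that passed, which rose by 0.47 to 1.01. ABCF3 stayed outside this pattern, with 205, 204, 202 and 184 in H460R and 193, 228, 189 and 179 in H460S, and its change of 0.02 ± 0.10 did not pass (adjusted p = 0.925).

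Of 20 genes listed as partners in ribosome recycling and initiation, all bright, 11 rose and 1 fell, with a median change of 0.34. Among all genes that bright 23.3% rose and 23.9% fell, with a median of -0.01. EIF5, the GTPase-activating protein of eIF2, rose by 0.97 ± 0.08. ETF1, the termination factor eRF1 that precedes ABCE1 at the stop codon, rose by 0.86 ± 0.07. EIF2B1, a subunit of the exchange factor of eIF2, rose by 0.64 ± 0.11.

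Of the 6 mitochondrial, peroxisomal and lysosomal transporters, 1 rose and 0 fell, a share of 16.7% against 30.3% of all genes. Among the 5 above the level of the median probe set 1 was called, against 47.2% of all genes that bright. ABCD3 (PMP70), the carrier of branched and long-chain acyl-CoA into peroxisomes, had signals of 942, 1102, 974 and 785 in H460R and of 432, 524, 477 and 447 in H460S. All resistant arrays lay above all sensitive ones, and the rise was 1.01 ± 0.12 (adjusted p = 0.000786), or 2.01-fold. The other ABCD3 probe set rose by 0.81 ± 0.10. ABCD2, its relative for very long-chain fatty acids, was dim in both groups and changed by -0.90 ± 0.76.

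Of 17 measured genes of peroxisomal oxidation and import, 3 rose and 3 fell, with a median change of -0.05. This share of 35.3% lies near the 30.3% of all genes. All 6 were among the 14 listed genes above the level of the median probe set, against 47.2% of all genes that bright. ACAA1, the peroxisomal thiolase, rose by 0.92 ± 0.10, while PEX7, an import receptor of that thiolase, fell by 0.78 ± 0.09 and PEX3, which helps insert peroxisomal membrane proteins, by 0.59 ± 0.07.

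The mitochondrial members did not pass. ABCB10, of the inner membrane and linked to heme synthesis, had 755, 864, 762 and 588 in H460R and 788, 935, 825 and 875 in H460S and changed by -0.22 ± 0.13 (adjusted p = 0.272). ABCB8, another transporter of the inner membrane, changed by 0.37 ± 0.15 (adjusted p = 0.117). The mitoferrin SLC25A37, which ABCB10 is known to stabilise in mouse cells, fell by 0.86 ± 0.06. The other mitoferrin, SLC25A28, rose by 0.77 ± 0.15. Of 18 measured heme and iron-sulfur genes, all bright, 8 rose and 2 fell, and this share of 55.6% lies near the 47.2% of all genes that bright. Among the rises were those of the ferredoxin FDX2 by 0.84 ± 0.12 and the glutaredoxin GLRX5 by 0.78 ± 0.07.

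The lysosomal members gave no call either. ABCD4, which moves cobalamin out of lysosomes, had 162 to 235 in H460R and 245 to 309 in H460S, without overlap, and changed by -0.42 ± 0.15 (adjusted p = 0.0745). ABCB9, a lysosomal peptide transporter, changed by 0.03 ± 0.11.

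Of 16 measured lipid, sterol and bile salt transporters, 2 fell, 0 rose and 14 did not pass. This share is 12.5%, against 30.3% of all genes. Of the 16, 8 lay at or below the level of the median probe set. Among the 8 above it 1 was called, against 47.2% of all genes that bright. ABCA8, implicated in cholesterol and sphingolipid export, had signals of 193, 203, 206 and 191 in H460R and of 369, 392, 363 and 403 in H460S. The groups were well apart, and it fell by 0.94 ± 0.07 (adjusted p = 9.87e-05). Its other 2 probe sets were dim and changed by 0.67 and 0.87 without passing, and the mean of all 3 changed by 0.20 (adjusted p = 0.623). ABCA9, a close relative of little-known substrate, fell by 0.66 ± 0.13 (adjusted p = 0.00784) at the low signals of 9.62 to 12.9 in H460R and 16.5 to 22.4 in H460S, and its other probe sets did not pass. ABCA9 did not pass with a replicate block (adjusted p = 0.0535), with an intensity trend and robust prior (adjusted p = 0.247) or with the mean of all probe sets (adjusted p = 0.283).

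The cholesterol exporters moved in no common direction. ABCA1, which loads cholesterol onto apolipoprotein A-I, had 240, 147, 196 and 171 in H460R and 94.6, 173, 103 and 89.0 in H460S. Sensitive array 2 lay among the resistant ones, and the change of 0.74 ± 0.25 did not pass (adjusted p = 0.0607). Without that array ABCA1 passed (0.95, adjusted p = 0.0104). ABCG1, which loads cholesterol onto mature high-density lipoprotein, had 23.9 to 45.9 in H460R and 32.6 to 68.1 in H460S and changed by -0.62 ± 0.29 (adjusted p = 0.165). It passed without H460S array 4 (-0.86, adjusted p = 0.0364).

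The other bright ABCA members did not pass. ABCA2, a lysosomal sterol and lipid transporter, changed by -0.46 ± 0.18 (adjusted p = 0.0966), though another, dimmer probe set of this gene fell by 1.97 ± 0.26. ABCA7, a phospholipid transporter, changed by -0.23 ± 0.09 (adjusted p = 0.0967), with 95.9 to 116 in H460R and 118 to 137 in H460S. ABCA5 changed by -0.33 ± 0.14 (adjusted p = 0.116) and passed without H460S array 1 (-0.45, adjusted p = 0.0132). The other ABCA5 probe set, also bright, fell by 0.41 ± 0.11 (limma adjusted p over all probe sets = 0.0420). When the probe sets of each gene were averaged, ABCA2 and ABCA5 both passed, at -0.98 (adjusted p = 0.00508) and -0.37 (adjusted p = 0.0267). ABCA3, the surfactant lipid transporter of alveolar type II cells, had 50.2 to 97.1 in H460R and 58.7 to 79.1 in H460S and changed by 0.05 ± 0.21 (adjusted p = 0.899). ABCG4, a cholesterol exporter of brain, changed by -0.23 ± 0.35.

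Another group of lipid members was close to the bottom of the scale in both groups, so their changes carry wide errors. They were the liver transporters ABCB4 (phosphatidylcholine), ABCB11 (bile salts), ABCG5 and ABCG8 (plant sterols), with ABCA4, the transporter of retinal photoreceptors, ABCA6 and ABCA13. Their changes ran from -1.02 ± 0.80 in ABCB4 to 0.53 ± 0.62 in ABCG5, and none passed.

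**Figure D4:**
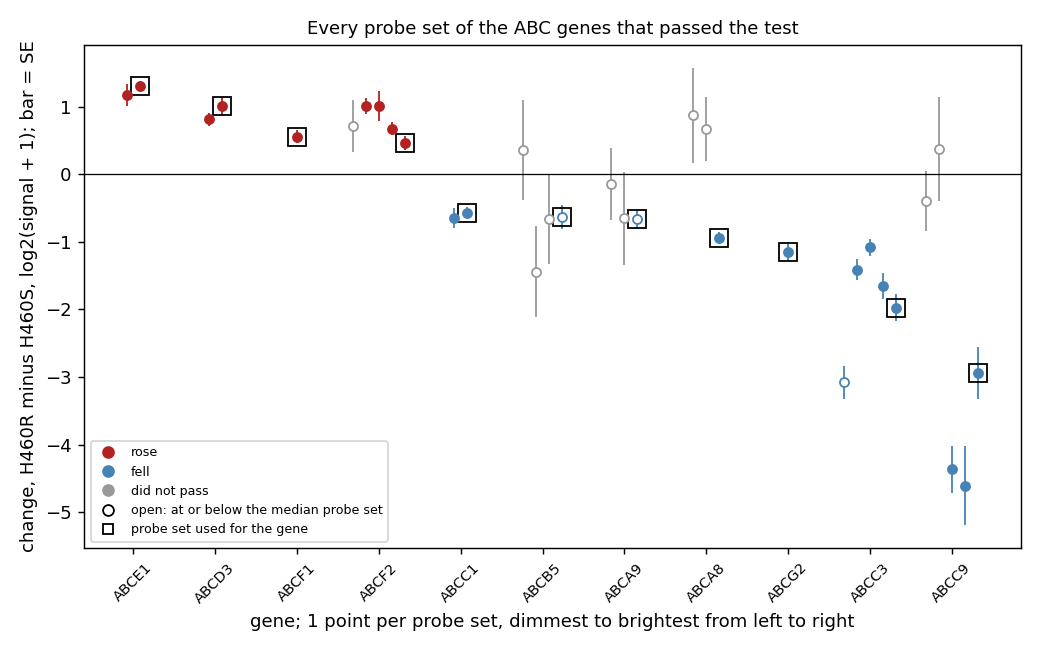
Change of every probe set of the 11 ABC genes that passed, H460R minus H460S on the log2(signal + 1) scale (vertical axis), with standard errors, n = 4 per group; probe sets run from dimmest to brightest within a gene, and squares mark the probe set used for the gene. All 5 probe sets of ABCC3 fell, 3 of 5 of ABCC9 fell, and the dim probe sets of ABCA8 did not pass.

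Across all 85 probe sets of the members, 9 rose and 16 fell. Of all 54613 probe sets that are not controls 19.5% changed, of which 9.13% rose and 10.4% fell as shares of the total. The called members had 11 further probe sets above the level of the median probe set, in 6 genes, and all 11 passed in the same direction as the probe set used. No probe set of a called member passed in the opposite direction. In all, 15 of the 37 members had groups that did not overlap, 5 higher and 10 lower in H460R, against 33.9% of all genes.

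Among genes that sense or prepare the substrates of the pumps, more fell than rose in H460R. Over all genes 30.3% changed and 15.6% fell, with a median of -0.03. Among genes above the level of the median probe set, 47.2% changed and 23.9% fell, with a median of -0.01. Of 13 measured xenobiotic sensors, 8 fell and 2 rose, with a median change of -0.48. All 10 were among the 12 sensors above that level. MAFF, a small MAF partner of NRF2, had 413, 456, 460 and 473 in H460R and 1378, 1591, 1497 and 1431 in H460S and fell by 1.71 ± 0.08. PPARA, a fatty acid receptor, fell by 1.16 ± 0.15 and AHRR, the repressor of the aryl hydrocarbon receptor, by 0.77 ± 0.14, while PPARD rose by 0.79 ± 0.13.

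Of 25 measured genes listed as conjugating enzymes, 13 fell and 0 rose, with a median change of -0.38. The 13 were among the 21 listed genes above the level of the median probe set, beside 23.9% of all genes that bright that fell. The list holds enzymes that make the glutathione, glucuronide and sulfate conjugates carried by ABCC pumps. It also holds enzymes that make or reduce glutathione itself, and UGT8. GSR, the glutathione reductase, had 1049, 1054, 1147 and 1156 in H460R and 2166, 1876, 2167 and 2013 in H460S and fell by 0.90 ± 0.08. The glutathione transferases GSTZ1 and GSTA4 fell by 1.02 ± 0.09 and 1.01 ± 0.10, and UGT8, which makes galactosylceramide, by 1.06 ± 0.12.

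Uptake carriers changed in both directions. Of 15 measured, 3 rose and 2 fell, with a median change of 0.02. This share of 33.3% lies near the 30.3% of all genes. All 5 were among the 11 carriers above the level of the median probe set, against 47.2% of all genes that bright. SLC29A1, the nucleoside carrier ENT1, rose by 0.81 ± 0.10, SLC22A5, the carnitine carrier, by 0.59 ± 0.09 and SLC19A1, the reduced folate carrier, by 0.47 ± 0.10. SLC31A1, the copper importer that also affects platinum uptake, fell by 0.55 ± 0.14.

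Of 18 measured genes of liver X receptors and sterol handling, 3 rose and 7 fell, with a median change of -0.16. This share is 55.6%, against 30.3% of all genes. All 10 were among the 16 listed genes above the level of the median probe set, against 47.2% of all genes that bright. NPC1, which moves cholesterol out of lysosomes, rose by 0.94 ± 0.07 and the oxysterol-binding protein OSBPL3 by 1.13 ± 0.13, while the apolipoprotein APOC1 fell by 1.23 ± 0.25 and the sterol carrier STARD4 by 0.61 ± 0.07.

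**Figure D5:**
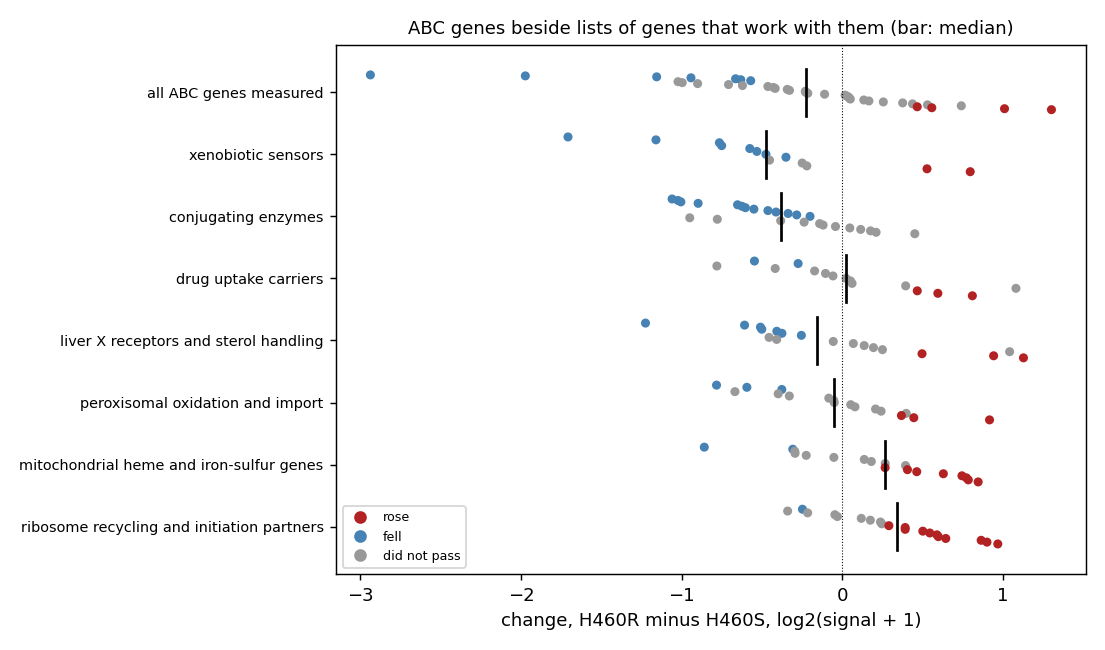
Change of each gene, H460R minus H460S on the log2(signal + 1) scale (horizontal axis), in the ABC family and in 7 lists of genes that work with its members; points are genes, coloured by whether they rose, fell or did not pass, and the vertical bar is the median of each list. The medians run from -0.48 for xenobiotic sensors to 0.34 for ribosome recycling and initiation partners, with -0.23 for the 37 ABC genes.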

How the data were processed

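The authors deposited linear signal intensity values of 54675 probe sets for 8 arrays, 62 of them controls. Per the submitters' processing notes RMA was used; its version is not given. These intensity values, as deposited, are not log-scaled: on every array the mean after trimming 2% at each end is 200, as MAS 5-type scaling gives, so the step that made them is not settled. Differences in total RNA per cell cannot be seen after such scaling.

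Values were taken as log2(signal + 1) with no further normalization, and a fold change on that scale understates changes of dim genes. Of the probe sets, 41097 had 1 symbol in the platform annotation, 1801 had several symbols and stayed unnamed, and 11777 were not listed there. Symbols were updated by gene identifier to RefSeq (GRCh38.p14), which matched 41043. The groups were compared with limma 3.58.1 under R 4.3.3, by lmFit and eBayes, with Benjamini-Hochberg adjustment over 19775 genes, or over the 54613 probe sets that are not controls. The fit was tested on simulated data. Role and partner lists are described by counts and medians, with no set test. Every member could be named, and of each longer partner list up to 4 called genes with the largest changes. The members and lists were chosen with earlier results of these data known. Nothing in the labels shows that replicate arrays came from separate cultures; the spread behind each p-value, which is that between arrays, may be technical, and the number of arrays limits precision. Arrays have no read depth. Alternatives were another pseudocount, a filter on dim probe sets, other scalings, variance models, probe set choices, a GAPDH covariate, a replicate block and leaving out each array.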

Additional observations from a re-analysis of the deposited data

Results flagged for a closer look

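In 168 groups of 4 arrays, 2 for each gene examined, 11 had an array whose gap to the nearest other, as a share of the group's range, exceeded Dixon's critical value for 4 values. Chance flags about 1 in 20 such groups. Among the ABC genes, H460R array 2 lay low for ABCA2 (share 0.862, log2 level 6.03 against 6.68 to 6.78) and for ABCC8 (0.839), H460R array 1 lay low for ABCA13 (0.848) and H460R array 4 lay low for ABCF3 (0.893, log2 level 7.53 against 7.67 to 7.68). None of these 4 genes had passed the test. Among partner and marker genes, H460R array 4 stood apart for SLC31A1 (0.847), STARD4 (0.901), ACAA1 (0.887), CDH1 (0.943) and KDR (0.847), H460R array 1 for GSTA4 (0.833) and H460S array 1 for SLC22A5 (0.945). H460R array 4 accounted for 6 of the 11.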

How the results depend on the processing

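Of the 11 called ABC genes, 8 kept their call under each of the 18 alternatives that gave them a value: ABCE1, ABCF1, ABCF2 and ABCD3, which rose, and ABCC1, ABCC3, ABCG2 and ABCC9, which fell. ABCE1 has no probe set without a cross-hybridisation suffix. ABCA8 turned to 0.20 (adjusted p = 0.623) with the mean of all its probe sets, 2 of them dim. ABCA9 was lost in 3 alternatives and ABCB5 in 8. With the mean of all probe sets 3 lipid transporters fell, ABCA2 (-0.98), ABCA5 (-0.37) and ABCG1 (-0.68, adjusted p = 0.0431), none of which is ABCA8 or ABCA9. ABCC5 changed by -0.39 (adjusted p = 0.0672) on probe sets without a suffix. With the replicate number as a block, 4 members rose and 5 fell, and 1 lipid transporter fell in place of 2. The labels do not say whether the numbers pair the arrays. Same-numbered arrays had correlations of deviations from their group means of -0.07 to 0.11. The closest H460S array had the same number for H460R arrays 2 and 3, but not for arrays 1 and 4. With so few arrays these values cannot decide whether the numbers mark pairs. With dim probe sets left out, 25 members were tested and 7 rose, among them 1 efflux pump, 1 lipid transporter and 2 organelle members, while 4 lipid transporters and 1 organelle member fell, and the median change was -0.11. 1 lipid transporter, ABCA1, rose with a pseudocount of 16, quantile normalization, median centring and the intensity trend, and 1 efflux pump, ABCC5, rose with quantile normalization and median centring. With the intensity trend 1 organelle member, ABCD4, fell. The median change of members was -0.16 with a pseudocount of 16, -0.17 after quantile normalization, -0.16 after median centring, -0.27 on probe sets without a suffix and -0.11 with the mean of all probe sets. Leaving out each array gave 4 to 6 rises, 6 to 8 falls and a median of -0.24 to -0.17, with 0 to 1 efflux pumps and 0 to 1 lipid transporters rising. The filter also left fewer genes in the fit. The cause of these shifts, with the filter or with the other alternatives, was not tested.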
